A study of Arabidopsis thaliana with 6 samples.

Results

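Plants sense oxygen through the N-degron pathway, in which the residue at the start of a protein decides how long the protein lives. Group VII ethylene response factors (ERF-VII), the transcription factors that switch on the response to low oxygen, carry a cysteine directly after the first methionine. Plant cysteine oxidases (PCO) oxidise that cysteine when oxygen is present, and the ubiquitin ligase PRT6 then marks the protein for destruction. When oxygen is low the factors persist and act on their targets, which include several PCO genes.

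The 10 genes described here are the ERF-VII factors RAP2.12, RAP2.2, RAP2.3, HRE1 and HRE2, the oxidases PCO1, PCO2, PCO4 and PCO5, and PRT6. They were taken by gene identifier, with earlier results of these data known, and all 10 were among the 22426 loci of the deposited table. The study sequenced RNA of whole 2-week-old Arabidopsis thaliana seedlings in 3 libraries of plants labelled NCBP mutant and 3 libraries of wild-type (WT) plants. Both were kept in a greenhouse at 22 °C under long days, with light for 16 hours and dark for 8 hours, and no low-oxygen treatment is named in the labels. NCBP (AT5G18110) encodes a protein related to eIF4E that binds the mRNA cap, and the labels give neither its allele nor the hour of harvest. Values are FPKM, a count of fragments divided by gene length and by library size. No library totals come with them, so the absolute depth is unknown.

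The factors share the start of their coding sequence, which is shown because it holds the codon that makes them substrates of the PCO enzymes. The lines give the first 30 coding bases from the RefSeq annotation of TAIR10.1, with the second codon in capitals, and tgt and tgc both encode cysteine.
RAP2.12 (AT1G53910, chromosome 1, plus strand): atgTGTggaggagctataatatccgatttc
RAP2.2 (AT3G14230, chromosome 3, minus strand): atgTGTggaggagctataatctccgatttc
RAP2.3 (AT3G16770, chromosome 3, plus strand): atgTGTggcggtgctattatttccgattat
HRE1 (AT1G72360, chromosome 1, plus strand): atgTGCggaggagctgtaatttccgattac
HRE2 (AT2G47520, chromosome 2, minus strand): atgTGTgggggagctatcatttctgatttc

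RAP2.12 shared 29 of these 30 bases with RAP2.2, 26 with HRE1, 26 with HRE2 and 24 with RAP2.3. A cysteine codon in the second place is rare, at 207 of 27557 protein-coding genes in that annotation (0.751%). The annotation gives 3 transcripts for HRE1, and 1 of them begins elsewhere and has no such codon, as the following line shows.
HRE1, the transcript with another start: atgTCTcaaagctttgaactttatccatgg
A value per gene, as deposited, cannot tell these transcripts apart. Over their whole coding sequences RAP2.12 and RAP2.2 were 70.1% identical, PCO4 and PCO5 78.1%, and PCO1 and PCO2 63.2%. The longest run without a mismatch was 32 bases in the closest pair, PCO4 and PCO5, and 23 bases between RAP2.12 and RAP2.2.

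The NCBP transcript was lower in the libraries labelled as its mutant, at 57.6 ± 1.73 FPKM, against 98.6 ± 1.61 FPKM in WT libraries (SD, n = 3 each). FPKM summed to between 979062 and 998737 in mutant libraries and to between 970383 and 1040255 in WT libraries. Of 18064 genes tested, 1133 were higher and 1524 lower in the mutant, which is 14.7% called in either direction, 6.27% higher and 8.44% lower. With each library rescaled to the same sum the split was 1286 higher and 1100 lower, and with organelle loci left out as well it was 1305 higher and 1107 lower. In bulk tissue, fewer cells that express a gene and less RNA of it per cell cannot be told apart. Marker genes placed the tissue as shoot and root: leaf and shoot markers summed to between 60977 and 65076 FPKM in mutant libraries and between 56459 and 68403 FPKM in WT libraries, and 12 root markers to between 1052 and 1215 FPKM in mutant libraries and between 1354 and 1594 FPKM in WT libraries. Most of the root sum was BGLU23, which fell to 1037 ± 91.8 FPKM in the mutant, against 1361 ± 129 FPKM in WT (SD, n = 3 each, limma adjusted p 0.0227). Without it the sums were 119 to 127 FPKM in mutant libraries and 114 to 141 FPKM in WT libraries. None of the 7 leaf and shoot markers or the 2 flower markers tested passed the threshold. At an unadjusted p under 0.05, 0 of the leaf and shoot markers passed, and 1 flower marker was higher and 1 lower. Of all 18064 tested genes, 2549 were higher and 3025 lower at that level. Of the 11 root markers tested, 0 were higher and 2 lower at that level, BGLU23 and SCR. The 5 flower markers summed to between 3.85 and 4.80 FPKM in mutant libraries and between 3.36 and 5.35 FPKM in WT libraries. Of them AP1 and AP3 were listed at 0 in some libraries, and PI, AG and SEP3 were above 0 in all. Of 5 seed markers, 3 were in the deposited table. They summed to between 0.128 and 0.331 FPKM in mutant libraries and between 0.0939 and 0.587 FPKM in WT libraries. Of these OLE1 and LEC1 were listed at 0 in some libraries, and CRA1 was above 0 in all.

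Of the 10 oxygen-sensing genes, 3 rose in the mutant, PCO2, HRE2 and RAP2.3, 1 fell, PCO5, and 6 did not pass the threshold. That is 40.0% called, beside 14.7% of all tested genes. HRE2 entered the test through its mutant values, its WT mean being under the filter of 1 FPKM, and lost its call under 8 of 16 alternatives. Among the 9 members with a mean of at least 1 FPKM in both groups, 2 rose and 1 fell. That is 33.3% called, beside 14.6% of all such genes. The threshold was a limma adjusted p under 0.05 over all 18064 genes. Fold changes are on the scale of log2(FPKM + 1), which understates the change of genes with low values. Their median log2 fold change was 0.15, against -0.003 over all tested genes. The mutant mean was 246% of the WT mean for HRE2 and 225% for PCO2. For 5 of the 10, 3 higher and 2 lower, no mutant value fell among the WT values, which was also so for 35.5% of all tested genes.

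**Figure D1:**
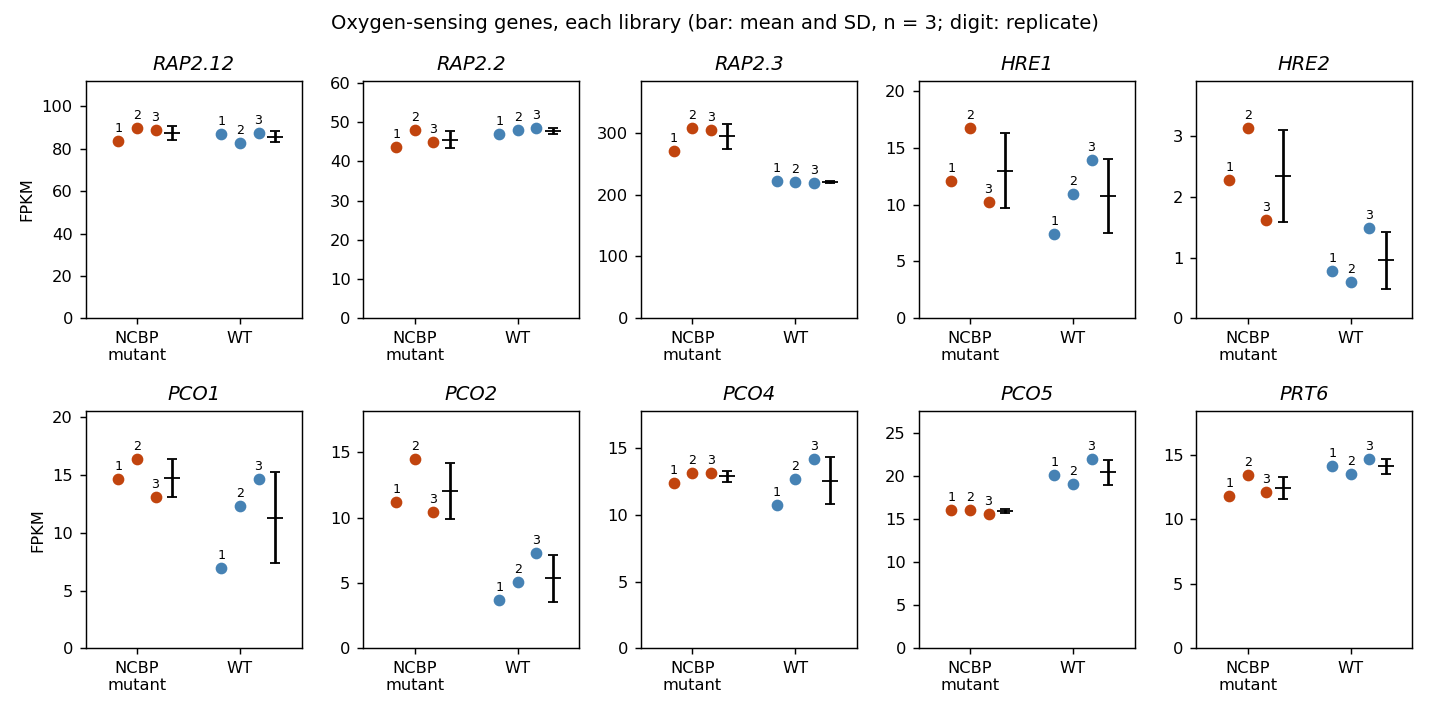
FPKM (linear axes from 0) of each of the 10 genes in the 3 NCBP mutant and 3 WT libraries. Points are libraries with their replicate number, and the bar beside them is mean and SD. PCO2, HRE2 and RAP2.3 lie above all WT libraries and PCO5 and PRT6 below them.

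The ERF-VII factors differed in level by more than their change between groups. RAP2.3 was the most abundant, and it rose with a narrow spread. RAP2.3 (AT3G16770; EBP in RefSeq), an activator known for its part in ethylene and stress responses, had 271, 307 and 305 FPKM in mutant replicates 1, 2 and 3, against 222, 219.7 and 219 FPKM in WT replicates 1, 2 and 3. All mutant libraries lay above all WT libraries, and the WT libraries were nearly level. The log2 fold change was 0.41 (SE 0.06, limma adjusted p 0.00378), or 134% of the WT mean.

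RAP2.12 (AT1G53910), the factor best known for release from the cell membrane when oxygen falls, had 83.5, 89.6 and 88.8 FPKM in the mutant, against 87.1, 82.7 and 87.4 FPKM in WT. The groups overlapped, and the log2 fold change was 0.03 (95% interval -0.09 to 0.14, limma adjusted p 0.768). RAP2.2 (AT3G14230), its closest relative here and likewise an activator of low-oxygen genes, had 43.7, 48.0 and 44.9 FPKM in the mutant, against 47.0, 47.9 and 48.4 FPKM in WT. Its log2 fold change was -0.07 (95% interval -0.19 to 0.05, limma adjusted p 0.428). For both genes the interval leaves room only for changes smaller than the rise of RAP2.3, but the difference between the factors was not tested.

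HRE1 and HRE2 are themselves induced by low oxygen and are known to prolong the response. HRE2 (AT2G47520; ERF71 in RefSeq) had 2.28, 3.13 and 1.62 FPKM in the mutant, against 0.781, 0.592 and 1.49 FPKM in WT. Mutant replicate 3 lay just above WT replicate 3, and the other mutant libraries stood further apart. The log2 fold change was 0.78 (SE 0.22, limma adjusted p 0.047), and the mean was 246% of that in WT. HRE2 had the lowest level of the 10 genes, with a WT mean of 0.954 FPKM. Its call was lost without WT replicate 1 (adjusted p 0.116) or 2 (0.117), without mutant replicate 1 (0.116) or 2 (0.148), with a replicate block (0.0974), with no filter (0.0686), with quantile normalization (0.0635) and with no mean trend (0.0603), in a range of 0.033 to 0.148 over its 16 alternatives. With pseudocounts of 0.1 and 5 in place of 1 its log2 fold change was 1.26 and 0.30.

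HRE1 (AT1G72360; ERF73 in RefSeq) had 12.1, 16.7 and 10.2 FPKM in the mutant, against 7.43, 10.9 and 13.9 FPKM in WT. The groups overlapped widely, and the log2 fold change was 0.27 (95% interval -0.23 to 0.76, limma adjusted p 0.452). In TAIR10.1 the exons of HRE1 share 124 bases, 9.74% of their length, with P40 (AT1G72370) on the opposite strand. P40 was abundant, at 326 ± 11.1 FPKM in the mutant and 276 ± 19.9 FPKM in WT (SD, n = 3 each). Whether the libraries kept strand is not stated in the labels, so reads of the shared bases cannot be assigned to either gene, and their part in the HRE1 value was not tested.

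The factors summed to 412, 464 and 450.4 FPKM in mutant libraries, against 365, 362 and 369.9 FPKM in WT libraries, with no overlap. RAP2.3 made up 66.5% ± 1.07 of that sum in the mutant and 60.3% ± 1.00 in WT (SD, n = 3 each). HRE1 and HRE2 together made up 3.46% ± 0.829 in the mutant and 3.20% ± 0.953 in WT, and these groups overlapped. Such shares compare genes per length within a library and do not depend on how the libraries were scaled.

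The PCO enzymes moved in different directions. PCO1 and PCO2 are known to be induced by low oxygen, while PCO4 and PCO5 are known as the members expressed at all times. PCO2 (AT5G39890) had 11.2, 14.5 and 10.4 FPKM in the mutant, against 3.68, 5.05 and 7.30 FPKM in WT. Every mutant library lay above every WT library. The log2 fold change was 1.07 (SE 0.20, limma adjusted p 0.0107), and the call was kept under all 17 alternatives (adjusted p 0.00585 to 0.038).

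PCO1 (AT5G15120) had 14.6, 16.4 and 13.1 FPKM in the mutant, against 6.96, 12.3 and 14.6 FPKM in WT. WT replicate 1 was far below the other 5 libraries, and WT replicate 3 lay within the mutant range. The log2 fold change was 0.41 (95% interval -0.08 to 0.90, limma adjusted p 0.241), so a rise of the size seen for RAP2.3 is within the interval. The ratio of PCO2 to PCO1 was 0.815 ± 0.0595 in the mutant and 0.480 ± 0.0624 in WT (SD, n = 3 each), with no overlap between the groups.

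PCO5 (AT3G58670) had 16.1, 16.1 and 15.6 FPKM in the mutant, against 20.1, 19.1 and 22.0 FPKM in WT. The mutant libraries were close together and all below WT, at 78.0% of the WT mean. The log2 fold change was -0.34 (SE 0.07, limma adjusted p 0.0135), and the call was kept under all 17 alternatives (adjusted p 0.00906 to 0.0438). PCO4 (AT2G42670), the copy most like PCO5, had 12.4, 13.1 and 13.1 FPKM in the mutant, against 10.7, 12.7 and 14.2 FPKM in WT. The mutant libraries lay inside the WT range, and the log2 fold change was 0.04 (95% interval -0.17 to 0.26, limma adjusted p 0.792). The ratio of PCO5 to PCO4 was 1.24 ± 0.0509 in the mutant and 1.64 ± 0.206 in WT, again without overlap.

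The make-up of the PCO transcripts among the members differed between the groups, while their sum overlapped. PCO3, at 9.04 ± 0.762 FPKM in the mutant and 9.63 ± 0.463 FPKM in WT, was left out of the sum and shares. The 4 genes summed to 54.3, 60.0 and 52.2 FPKM in the mutant, against 41.4, 49.1 and 58.0 FPKM in WT. The inducible pair, PCO1 and PCO2, made up 47.5%, 51.4% and 45.1% of the sum in mutant libraries, against 25.7%, 35.3% and 37.7% in WT libraries. PCO2 alone accounted for 21.6% ± 2.23 in the mutant and 10.6% ± 1.87 in WT, and PCO5 for 28.7% ± 1.69 in the mutant and 41.8% ± 5.88 in WT (SD, n = 3 each). Without WT replicate 1, the library with the lowest share, the pair still stood 11.5 percentage points higher in the mutant, against 15.1 points with all libraries. No test was made of these shares.

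**Figure D2:**
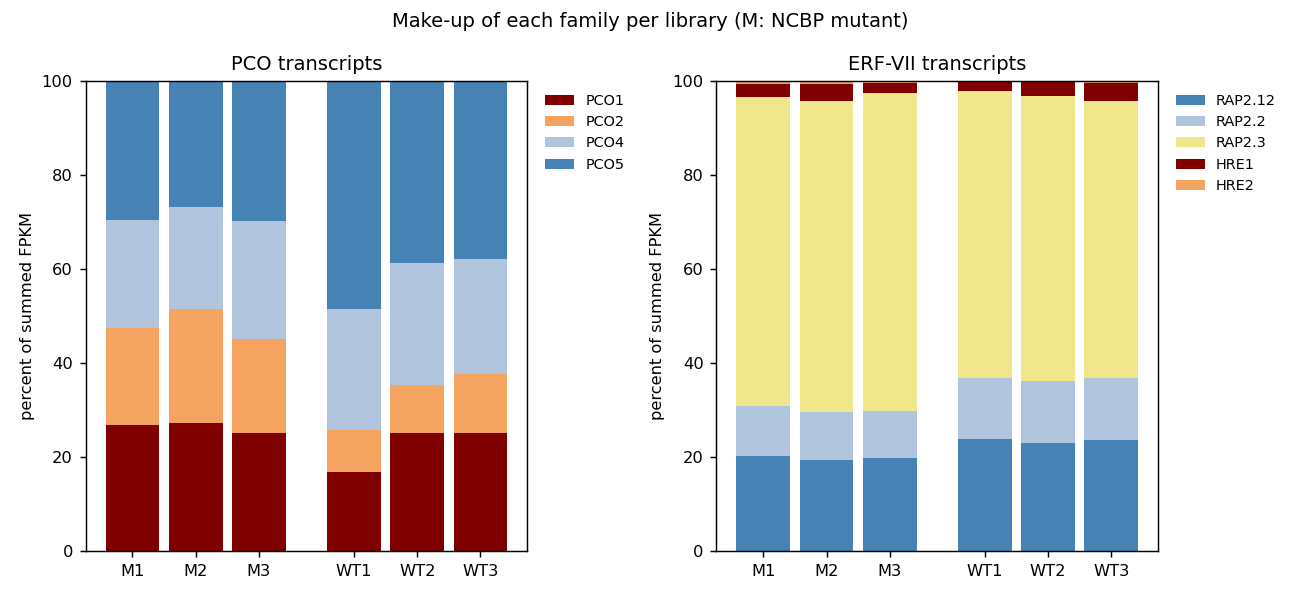
Percent of the summed FPKM of the PCO genes (left, PCO3 left out) and of the ERF-VII genes (right) contributed by each member. There is one bar per library, M1 to M3 for the NCBP mutant and WT1 to WT3 for wild type. PCO1 and PCO2 together reach between 45.1% and 51.4% in mutant libraries and between 25.7% and 37.7% in WT libraries.

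PRT6 (AT5G02310), the ligase that recognises the arginine added to the oxidised proteins, had 11.8, 13.4 and 12.1 FPKM in the mutant, against 14.1, 13.5 and 14.7 FPKM in WT. The groups did not overlap but came close, mutant replicate 2 lying just under WT replicate 2. The log2 fold change of -0.17 (SE 0.07) had an unadjusted limma p of 0.045 and an adjusted p of 0.152, so it did not pass. Its exons share 2.22% of their length with MYB3R-5 on the opposite strand, a gene at 2.22 ± 0.331 FPKM in the mutant and 2.08 ± 0.285 FPKM in WT.

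Ordered by mean level, the mutant libraries ran from RAP2.3 through RAP2.12, RAP2.2, PCO5, PCO1, HRE1, PCO4, PRT6 and PCO2 to HRE2. In WT the order was RAP2.3, RAP2.12, RAP2.2, PCO5, PRT6, PCO4, PCO1, HRE1, PCO2 and HRE2. The 3 RAP genes and HRE2 were separated from their neighbours in both groups, the lowest library of the higher gene lying above the highest library of the lower gene. From PCO5 down to PCO2 every neighbour overlapped in the mutant. In WT only the neighbours from PRT6 to HRE1 overlapped, with PCO5 above them and PCO2 below. PCO2 thus lay below HRE1 in WT, at 5.34 ± 1.83 against 10.7 ± 3.24 FPKM. The gap was narrow, with the highest PCO2 library at 7.30 FPKM and the lowest HRE1 library at 7.43 FPKM. In the mutant PCO2 overlapped PRT6, at 12.0 ± 2.15 against 12.4 ± 0.879 FPKM (SD, n = 3 each).

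Other enzymes of the N-degron pathway mostly did not pass. Of 13 listed, all tested, 2 rose by limma, 0 fell and 11 missed the threshold, with a median log2 fold change of 0.03. That is 15.4% called, beside 14.7% of all tested genes. At an unadjusted p under 0.05, 2 were higher and 1 lower, beside 2549 higher and 3025 lower of all 18064 tested genes. The genes that rose encode methionine aminopeptidases, which remove the first methionine and so expose the residue after it. MAP1C (AT1G13270), known as an organelle-targeted form, had 30.1, 30.4 and 31.7 FPKM in the mutant, against 22.3, 17.3 and 20.6 FPKM in WT (log2 fold change 0.60, SE 0.09, limma adjusted p 0.00427). MAP2B (AT3G59990), a cytosolic form, had 47.9 ± 1.58 FPKM in the mutant and 40.9 ± 2.13 FPKM in WT (SD, n = 3 each, log2 fold change 0.22, limma adjusted p 0.0327). The call of MAP2B was lost with no mean trend (0.0694), with the replicate block (0.0593) and without WT replicate 1 (0.0914) or 2 (0.0716) or mutant replicate 1 (0.074), 2 (0.118) or 3 (0.0644), in a range of 0.0222 to 0.118. ATE1 (AT5G05700), an arginyl transferase that acts between the PCO enzymes and PRT6, missed the threshold at 12.4 ± 0.495 FPKM in the mutant and 14.7 ± 0.762 FPKM in WT (log2 fold change -0.23, SE 0.07, limma adjusted p 0.0522), and passed it, at 0.0406, with a filter at a mean of 5 FPKM. PCO3 (AT1G18490), a further cysteine oxidase gene, had 9.04 ± 0.762 FPKM in the mutant and 9.63 ± 0.463 FPKM in WT (limma adjusted p 0.533), with 13.9% of its exonic length shared with AT1G18486 on the same strand.

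VRN2 and ZPR2 are other proteins whose second residue is cysteine and whose stability is known to depend on this pathway. Their coding starts, again with the second codon in capitals, have a cysteine codon there like the ERF-VII genes but differ in the bases that follow. For VRN2 1 of 2 annotated transcripts has this start.
VRN2 (AT4G16845, chromosome 4, plus strand): atgTGTaggcagaattgtcgcgcgaaatcc
ZPR2 (AT3G60890, chromosome 3, minus strand): atgTGTctgacaacttcagagccaccattc
Neither passed the threshold by limma, nor at an unadjusted p under 0.05. VRN2, a Polycomb protein, had 12.6 ± 0.410 FPKM in the mutant and 13.5 ± 0.624 FPKM in WT (adjusted p 0.373). ZPR2, a small leucine zipper protein of the shoot tip, had 2.08, 1.74 and 1.66 FPKM in the mutant, against 0.809 and 2.25 FPKM in WT replicates 1 and 2 and a listed 0 in WT replicate 3 (adjusted p 0.262, and 0.0389 without WT replicate 2).

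**Figure D3:**
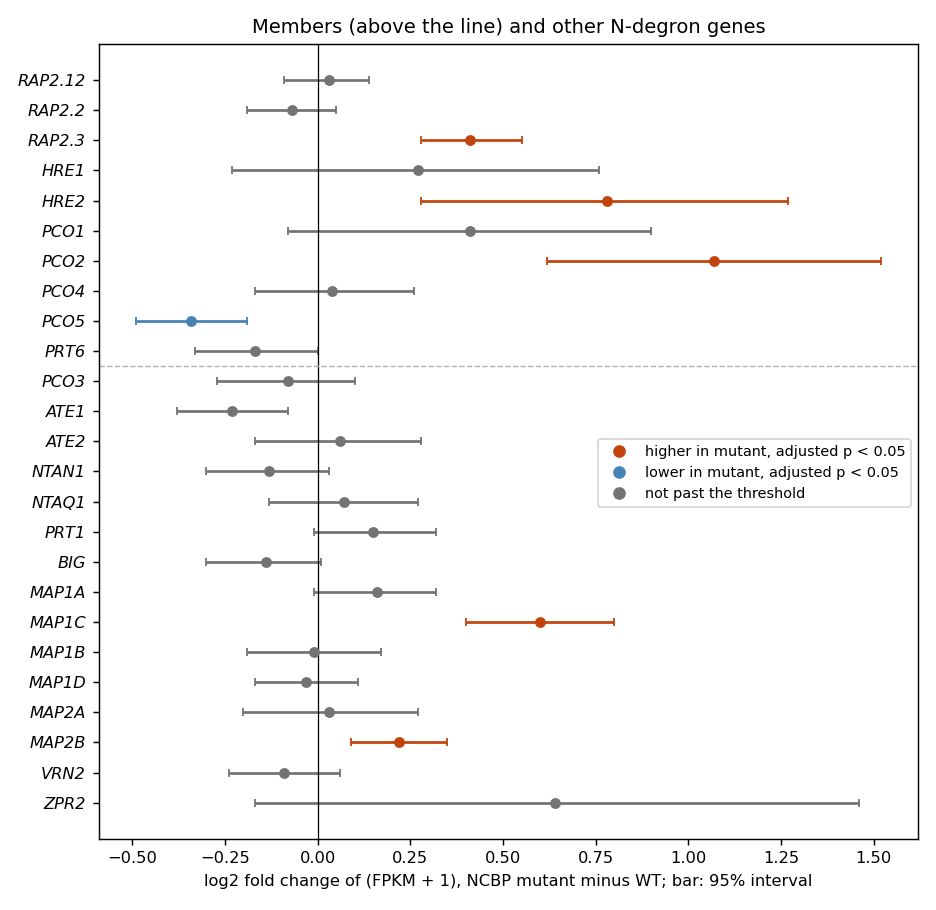
Log2 fold change of (FPKM + 1), NCBP mutant minus WT, with 95% limma intervals for the 10 members (above the dashed line) and for other N-degron enzymes and substrates (below it). Colour shows the call at an adjusted p of 0.05. PCO2 is at 1.07 and HRE2 at 0.78, and PCO5 is the member that fell, at -0.34.

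Genes for proteins that act on or with the factors gave 2 rises and 0 falls among 10 tested by limma, with a median of -0.01. That is 20.0% called, beside 14.7% of all tested genes. At an unadjusted p under 0.05, 2 were higher and 1 lower, beside 2549 higher and 3025 lower of all 18064 tested genes. PGB1 (AT2G16060), a phytoglobin that removes the nitric oxide also needed for breakdown of the factors, had 59.1, 78.4 and 50.5 FPKM in the mutant, against 16.7, 21.4 and 28.7 FPKM in WT. Its log2 fold change was 1.46 (SE 0.20, limma adjusted p 0.00326). MPK3 (AT3G45640), a kinase of stress signalling, had 46.7 ± 3.28 FPKM in the mutant and 40.0 ± 0.941 FPKM in WT (limma adjusted p 0.0472). The call of MPK3 was lost under 8 of 17 alternatives, among them leaving out WT replicate 1 (0.101), 2 (0.108) or 3 (0.0823) or mutant replicate 2 (0.117) or 3 (0.124), in a range of 0.0223 to 0.124, and 10.3% of its exonic length lies under AT3G45645 on the other strand. HRA1 (AT3G10040), which is induced through RAP2.12 and restrains it, had 7.01, 7.24 and 4.72 FPKM in the mutant, against 2.39, 5.45 and 4.78 FPKM in WT (limma adjusted p 0.176). ACBP1 and ACBP2, the membrane proteins that hold RAP2.12, missed the threshold, with log2 fold changes of -0.01 (ACBP1) and -0.17 (ACBP2).

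Genes known to be induced by low oxygen rose widely. Of 36 listed, without HRE1, HRE2, PCO1 and PCO2, 35 were tested. The list was written with earlier results of these data known. By limma 21 of them rose, none fell and 14 missed the threshold. That is 60.0% higher, beside 6.27% of all tested genes, and the median log2 fold change was 0.76. AT3G29970 and AT5G10040, with WT means of 0.383 and 0.330 FPKM, entered the test through their mutant values. Among the 33 genes with a mean of at least 1 FPKM in both groups 19 rose (57.6%, beside 6.16% of all such genes). At an unadjusted p under 0.05, 25 of the 35 were higher and 1 lower, beside 2549 higher and 3025 lower of all 18064 tested genes. Of the 21 calls, 8 were kept under every alternative that tested the gene and 13 were lost under at least 1. The number called was 13 without mutant replicate 1, and also 13 with robust moderation. HRA1 and PGB1 belong to this list as well.

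The rises covered fermentation, sucrose use and genes without a settled role. PDC2 (AT5G54960), a pyruvate decarboxylase of ethanol fermentation, had 35.6, 37.6 and 40.6 FPKM in the mutant, against 19.2, 21.2 and 26.1 FPKM in WT (log2 fold change 0.76, limma adjusted p 0.00358). Its partner in the pathway, the alcohol dehydrogenase ADH1, had 107, 139 and 79.3 FPKM in the mutant, against 24.8, 41.6 and 58.0 FPKM in WT, and PDC1 had a log2 fold change of 1.31. Their calls were lost with robust moderation, at adjusted p 0.0892 for ADH1 and 0.0681 for PDC1. The sucrose synthases SUS1 (AT5G20830) and SUS4 (AT3G43190) reached 26.0 ± 3.15 and 22.3 ± 6.05 FPKM in the mutant, against 14.7 ± 2.75 and 8.04 ± 2.53 FPKM in WT (SD, n = 3 each, limma adjusted p 0.00767 and 0.00814).

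HRU1 (AT3G03270), a universal stress protein, averaged 119.9 ± 14.9 FPKM in the mutant and 67.8 ± 9.63 FPKM in WT (limma adjusted p 0.00378). AT5G10040, one of the genes that entered through the mutant values, had 6.71, 10.3 and 5.34 FPKM in the mutant, against a listed 0, 0.614 and 0.376 FPKM in WT (limma adjusted p 0.000621). AT2G17850 had 12.5 ± 3.30 FPKM in the mutant and 2.69 ± 2.29 FPKM in WT (adjusted p 0.0116, and 0.0623 with robust moderation). AT4G10270 had 32.2 ± 5.60 FPKM in the mutant and 12.7 ± 4.29 FPKM in WT (limma adjusted p 0.00753), with 79% of its exonic length under AT4G05775 on the opposite strand.

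The other genes that rose were LBD41, SAD6, CML38, ACO1, SRO5, HUP40, AT3G27220, AT3G29970, AT4G33560, AT5G44730 and AT5G66985. Calls were lost under 9 of 17 alternatives for HUP40 (adjusted p 0.00648 to 0.0988), 8 of 17 for ACO1 (0.0135 to 0.109), 6 of 17 for AT5G66985 (0.0254 to 0.129) and 5 of 16 for CML38 (0.0156 to 0.0873). Leaving out any WT library ended the call of HUP40, at 0.096, 0.0708 and 0.0502 without WT replicates 1, 2 and 3, as did leaving out mutant replicate 1 (0.0988) or 2 (0.0873). For ACO1 leaving out WT replicate 1 (0.0554) or 2 (0.0732) or mutant replicate 1 (0.082), 2 (0.109) or 3 (0.0581) did so. For AT5G66985 it was WT replicate 2 (0.0517) or mutant replicate 1 (0.0925) or 2 (0.112), and for CML38 mutant replicate 1 (0.0873), 2 (0.0798) or 3 (0.0698). Without mutant replicate 1 the calls of LBD41 (0.0574), SAD6 (0.051), AT3G27220 (0.0509) and AT3G29970 (0.0513) were lost, and without mutant replicate 2 those of LBD41 (0.0529), AT3G27220 (0.0552) and SRO5 (0.0533). With robust moderation SAD6 (0.0739) and AT4G33560 (0.056) lost theirs. Some genes induced by low oxygen did not follow. HUP54 (AT4G27450) had 121 ± 22.4 FPKM in the mutant and 135 ± 17.9 FPKM in WT (95% interval of the log2 fold change -0.46 to 0.13). AT4G39675 had 109 ± 15.8 FPKM in the mutant and 108 ± 29.0 FPKM in WT (95% interval -0.37 to 0.45). The remaining genes that did not pass were HRA1, NIP2;1, ETR2, RBOHD, HUP32, ACHT5, EXL1, ACR7, PFK6, AT1G19530, AT5G42200 and AT5G45960.

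**Figure D4:**
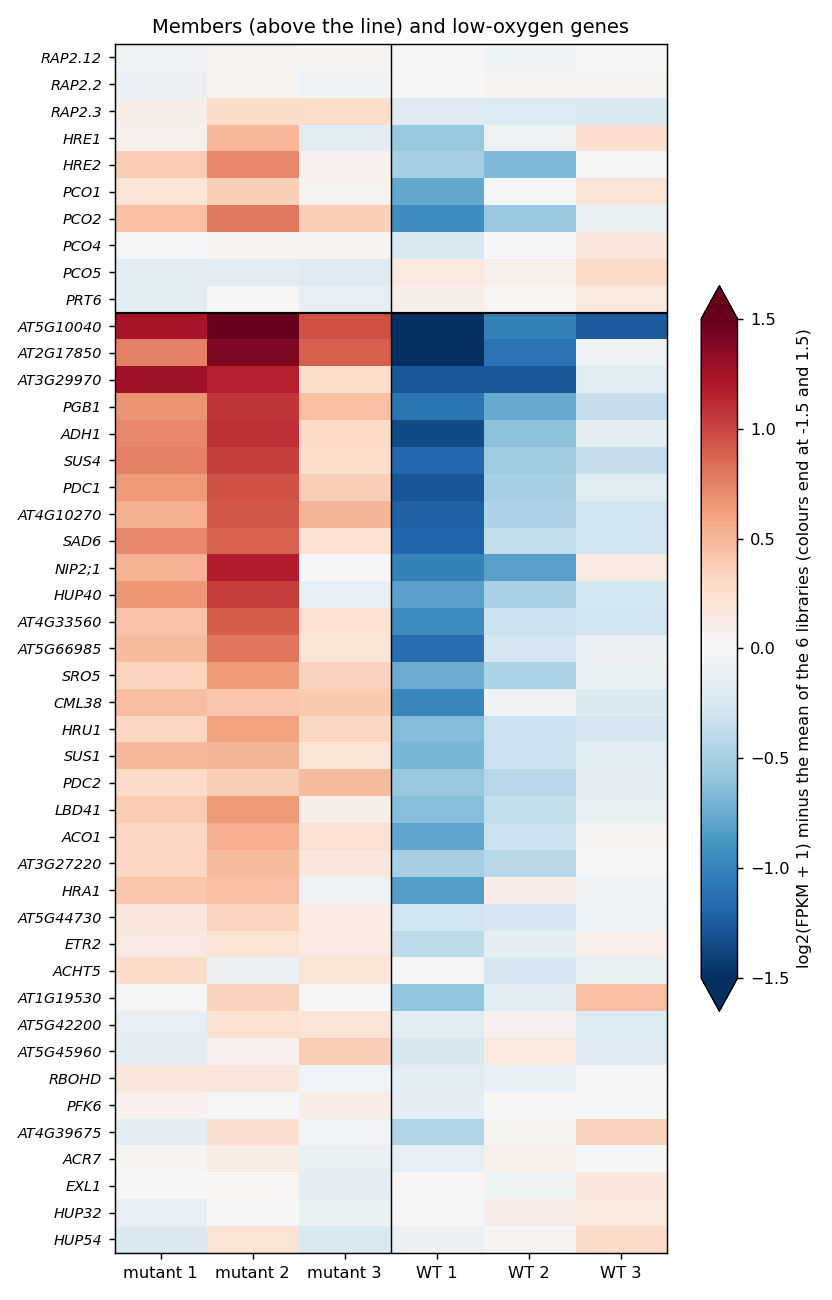
Log2(FPKM + 1) of each library minus the mean of the 6 libraries, for the 10 members (above the line) and the 35 tested low-oxygen genes ordered by their log2 fold change. Mutant libraries are on the left and WT libraries on the right. PCO2 and HRE2 are above 0 in the mutant libraries and below it in WT libraries, RAP2.12 and RAP2.2 stay near 0, and WT 1 is the lowest WT library for most low-oxygen genes.

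Libraries of one group differed along the same genes. WT replicate 1 was the lowest WT library for 32 of the 35 low-oxygen genes (91.4%), against 38.4% of all tested genes, and for 5 of the 10 members (RAP2.2, HRE1, PCO1, PCO2 and PCO4). WT replicate 3 was the highest WT library for 9 of the 10 members and 27 of the 35 low-oxygen genes (77.1%), against 31.3% of all tested genes. Mutant replicate 2 was the highest mutant library for 9 of the 10 members and 28 of the 35 low-oxygen genes (80.0%), against 34.2% of all tested genes. These counts were made after the values had been seen, and what sets the libraries apart was not tested. Without WT replicate 1, 2 members were higher and 1 lower, and 19 low-oxygen genes were called, and without mutant replicate 2 the numbers were 2, 1 and 14.

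Over the 6 libraries the genes whose log2(FPKM + 1) followed that of PCO2 most closely were SRO5 (Pearson r 0.998), GSL1 (0.9975) and MAP2B (0.9968). For PCO5 they were HAB1, TTA2 and AT2G30740, at r between 0.9972 and 0.9976. For RAP2.3 they were AT3G01450, CYP71 and LSH1, at 0.9948 to 0.996, and for HRE2 they were PBL1 (0.9924), a locus the authors added as new gene 47 (0.9922) and AT4G15563 (0.9897). Each r holds the difference between the groups as well as the spread within them and was picked as the highest among 18064 genes over 6 libraries. SRO5, which shares 45.5% of its exonic length with ALDH12A1 on the opposite strand, is also in the low-oxygen list.

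The promoters were searched on both strands for 2 motifs, in windows of 250 bases before and 50 bases after each annotated gene start in TAIR10.1. A motif for the hypoxia-responsive promoter element was written as AAACCANNNGC, with N any base. Whether its matches fit the element more closely was not checked. The motif occurred in 1 of 10 member windows, that of PCO1. There the match is on the reverse strand, and its end nearest the gene start lies 9 bases after the start. The motif also occurred in 5 of 36 windows of low-oxygen genes and in 287 of 27557 windows of all protein-coding genes (1.04%). The ERF-binding GCC box, GCCGCC, occurred in 0 of 10 member windows, 4 of 36 low-oxygen windows and 710 of all windows (2.58%).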

How the data were processed

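RNA-seq values of 6 libraries were taken from a single table. The authors deposited FPKM per locus; HISAT2 is named, without a version, per the submitters' processing notes, and the quantifier, genome build, annotation, strand and read length were not stated in the sources used here. Columns were matched to samples by the labels. Of 22107 nuclear loci, 22053 were found in RefSeq's TAIR10.1 annotation, the source of names, strands and sequences. Coordinates are left out, as the build behind the FPKM is not stated.

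Genes averaging 1 FPKM or more were tested on log2(FPKM + 1), NCBP mutant minus WT, with limma 3.58.1 in R 4.3.3 (mean trend, 2-sided, Benjamini-Hochberg over 18064 genes, threshold 0.05). Every adjusted p is from that test, unless an alternative is named, which was fitted and adjusted over its own tested genes. On simulated data for this comparison with 18064 genes, 71% of 100 genes changed 1.5-fold and 100% of 100 genes changed 2-fold were recovered, with 7 false calls. The changes were made in FPKM + 1, so for genes with low values they are larger in FPKM. Fewer genes were changed than the 2657 called in the data, and the simulated noise was independent between genes. The spread of each simulated gene was the one limma had already moderated, so recovery may be overstated for genes that vary more.

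The members and lists were chosen with earlier results of these data known, and no set was tested. Named were all members, up to 8 called genes per list by smallest p, others to complete a count, and the 3 genes most correlated with each called member. HUP54, AT4G39675, HRA1, ACBP1, ACBP2, PCO3, ADH1 and PDC1 were named beyond that rule, after their values were seen. Nothing states that replicates came from separate sowings, so p-values reflect the spread among these 6 libraries alone, and it may be technical. Coding sequences were aligned with Biopython 1.88.

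The 17 alternatives were other pseudocounts and filters, 4 rescalings, no trend, robust moderation, a replicate block and leaving out each library.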

Additional observations from a re-analysis of the deposited data

How the results depend on the processing

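Among the members, the calls of RAP2.3, PCO2 and PCO5 were kept under all 17 alternatives, HRE2 lost its call under 8 of 16, and none of the other 6 members gained one. The count of called genes was 2657 with all libraries and between 1321 and 1997 with 1 library left out. Members called numbered 4, and between 3 and 4 with 1 library left out. For low-oxygen genes the count was 21, 13 with robust moderation and between 13 and 22 with 1 library left out. For N-degron enzymes the count was 2, 3 with a mean FPKM of at least 5 (ATE1 then fell), 1 with no mean trend, 1 with the replicate block and between 1 and 2 with 1 library left out. For partners of the factors it was 2, 1 with no filter, 1 with no mean trend, 1 with the replicate block and between 1 and 2 with 1 library left out. The cause of these shifts was not tested. Where 1 library was left out, the smaller number of libraries and the library dropped cannot be told apart.

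Replicate numbers did not pair the libraries: deviations of same-numbered libraries correlated at 0.0705, -0.0716 and -0.0596 over 18064 genes. With the replicate block 1991 genes, 3 members and 20 low-oxygen genes were called. The share of PCO1 and PCO2 stood 11.5 to 17.5 percentage points higher in the mutant with 1 library left out. The share of HRE1 and HRE2 differed by 0.265 points with all libraries and by -0.207 to 0.746 with 1 left out. No scaling moved the median of all genes by over 0.1 on the log2 scale. Depth is unknown, so the precision of low values such as HRE2 is known only from the spread between replicates.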
